A study of Mus musculus with 2 samples.

Results

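The 10 genes described here encode the fibroblast growth factors and the hepatocyte growth factor through which corneal stroma and epithelium exchange signals, with their receptors. They were chosen by symbol from the 32285 genes counted: the ligands Fgf1, Fgf2, Fgf7, Fgf10, Fgf18 and Hgf, and the receptors Fgfr1, Fgfr2, Fgfr3 and Met. Single-cell transcriptomes were made from the cornea with its limbal border, taken from 1 wild-type mouse (genotype wt) injured with NaOH and from 1 uninjured wild-type control mouse. Whole eyes were dissected to the anterior segment, with most of the conjunctiva removed, and cells were freed with liberase and trypsin before 10x Genomics capture. The sources used here do not give the time after injury or the age, sex and strain of the mice. Each group is 1 library, so nothing below was tested or checked in a replicate, and differences between the mice, the dissections or the libraries cannot be told apart from the injury.

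Fibroblast growth factors (FGFs) are secreted ligands that bind receptor tyrosine kinases together with heparan sulfate chains, and signal mainly through the ERK kinase cascade. Alternative splicing gives FGFR1, FGFR2 and FGFR3 an epithelial (IIIb) and a mesenchymal (IIIc) form, and the epithelial form of FGFR2 binds FGF7 and FGF10, ligands made by mesenchyme. Hepatocyte growth factor (HGF) is likewise a product of mesenchymal cells, is secreted as an inactive precursor and acts on the receptor MET of epithelial cells. In the cornea, FGF7 and HGF are known as products of stromal keratocytes that act on the overlying epithelium. The files count transcripts per gene by their molecular barcodes (UMIs), so splice forms of a receptor are counted together.

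The injured library held 8346 analysed cells with a median of 10599 UMIs, and the uninjured library 6775 cells with a median of 10162 UMIs. Clusters were named by marker genes and carry the ending -like, and 15 barcodes occurred in both libraries. Epithelial-like cells numbered 5772 in the injured and 6139 in the uninjured library, and stromal-like cells 801 in the injured and 458 in the uninjured library. All 8 stromal markers were found in at least 10% of the stromal-like cells of both libraries, at a summed level of 44301 CPM (UMIs of the gene or genes per 1000000 UMIs of the class) injured and 78275 CPM uninjured. The classes were held by different clusters in the libraries. Of the stromal-like cells, 799 injured and 39 uninjured cells lay in cluster 1, against 2 injured and 419 uninjured cells in cluster 15. Kera, the keratocan gene of resting keratocytes, stood at 138 CPM in injured and 3578 CPM in uninjured stromal-like cells. Krt12, the keratin of corneal epithelium, stood at 27.0 CPM in injured and 19665 CPM in uninjured epithelial-like cells, so the defining marker of corneal epithelium was nearly absent from the injured cells. Krt14, the keratin of basal cells, stood at 8306 CPM in injured and 2747 CPM in uninjured epithelial-like cells. Of the 13 epithelial markers 13 were found in at least 10% of injured and 11 in at least 10% of uninjured epithelial-like cells, at a summed 22370 CPM injured and 33171 CPM uninjured. Whether a difference in a class below lies in the kind of cells captured or in the level within 1 kind of cell cannot be told apart.

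The promoters of the 3 stromal ligands with the largest differences are shown first, because Fgf7 was higher and Fgf10 and Fgf18 were lower in injured stroma. Each is the stretch of 250 bases before the RefSeq start site on GRCm38.p6, read 5′ to 3′ on the strand of the gene. Stretches were kept for 8 of the 10 members, all but Fgf1 and Fgfr1. Capitals mark the GC box, GGGCGG or its reverse complement CCGCCC. The Fgf7 stretch is chr2:126034408-126034657, plus strand, the Fgf10 stretch chr13:118714449-118714698, plus strand, and the Fgf18 stretch chr11:33147401-33147650, minus strand.
Fgf7: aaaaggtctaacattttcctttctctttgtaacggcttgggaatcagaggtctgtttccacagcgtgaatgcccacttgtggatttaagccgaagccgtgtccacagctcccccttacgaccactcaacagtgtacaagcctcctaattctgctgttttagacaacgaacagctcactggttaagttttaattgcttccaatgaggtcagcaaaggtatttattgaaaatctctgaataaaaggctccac
Fgf10: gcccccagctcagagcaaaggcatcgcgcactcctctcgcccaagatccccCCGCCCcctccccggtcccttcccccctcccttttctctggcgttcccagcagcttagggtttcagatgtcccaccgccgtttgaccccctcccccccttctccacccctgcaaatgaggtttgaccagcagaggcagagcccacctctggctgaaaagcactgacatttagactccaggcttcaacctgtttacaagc
Fgf18: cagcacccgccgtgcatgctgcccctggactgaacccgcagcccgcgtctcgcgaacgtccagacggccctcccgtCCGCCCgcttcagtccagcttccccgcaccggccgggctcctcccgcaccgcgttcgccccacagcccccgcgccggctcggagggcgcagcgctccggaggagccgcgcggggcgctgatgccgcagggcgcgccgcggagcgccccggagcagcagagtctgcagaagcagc
The Fgf7 stretch held 43.6% G and C, against 61.2% in Fgf10, 77.2% in Fgf18 and a median of 52.4% over 32851 RefSeq promoters. Fgf10 and Fgf18 each held 1 GC box and Fgf7 held none, and 32.7% of all stretches of this length held at least 1 on either strand. None of the 3 stretches held TATAAA (12.4% of all stretches), the AP-1 motif TGANTCA (6.75%) or the STAT motif TTCNNNGAA (7.02%), searched on both strands. A match is a description of letters and not a binding site.

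In stromal-like cells, Fgf7 was the ligand with the largest difference and the other epithelium-directed ligand of its receptor, Fgf10, differed the opposite way. Of the 9 members that reached 20 UMIs in this class, both libraries summed, 4 were at least 2-fold higher in injured cells with a 95% interval that excludes 1, against 9.74% of the 11955 genes so measured. In the other direction 2 were at least 2-fold lower, against 9.36% of genes. The 4 higher members were Fgf2, Fgf7, Fgfr3 and Hgf, of which Fgfr3 and Hgf lay below 25% of their level in the class where they were highest, a range that free RNA of other cells can reach. The 2 lower members were Fgf10 and Fgf18. Intervals cover counting error only.

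Fgf7 encodes keratinocyte growth factor, a ligand of epithelial FGFR2. It had 1081 UMIs in injured and 20 UMIs in uninjured stromal-like cells. These are 107.0 CPM (95% Poisson interval 101 to 114) in injured and 7.75 CPM (4.74 to 11.97) in uninjured cells, a ratio of 13.8 (8.89 to 22.7). The gene was detected in 53.7% of injured and 4.15% of uninjured stromal-like cells, at a median depth of 12005 UMIs injured and 5725 UMIs uninjured. Thinned to 1000 UMIs per cell, the shares were 9.28% injured (exact binomial interval 7.36 to 11.5) and 1.11% uninjured (0.362 to 2.57). Epithelial-like cells, which served as the class that should lack the gene, showed a UMI in 0.554% of injured cells (median depth 11658 UMIs) and 0.0326% of uninjured cells (10610 UMIs). The stromal shares lay above these in both libraries.

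Fgf10, the second ligand of epithelial FGFR2, had 54 UMIs in injured and 52 UMIs in uninjured stromal-like cells. Since the injured class held more UMIs in all, its level was 5.35 CPM (4.02 to 6.97) in injured and 20.2 CPM (15.1 to 26.4) in uninjured cells, 3.77-fold lower (2.53 to 5.62). Thinned to 1000 UMIs per cell, 8 UMIs remained in injured and 4 UMIs in uninjured cells, and the gene was detected in 0.878% (0.354 to 1.80) of injured and 0.889% (0.243 to 2.26) of uninjured cells, which gives no direction at this depth. Its UMIs were nearly all stromal, at 96.4% of those in the injured and 96.3% of those in the uninjured library. Fgf7 accordingly made up 95.2% of the UMIs of Fgf7 and Fgf10 together in injured stroma (93.8 to 96.4, of 1135) and 27.8% in uninjured stroma (17.9 to 39.6, of 72). Capture may differ between genes, so a share within 1 library need not be the share of transcripts. If the capture of each gene is constant, the direction of the difference between the libraries holds, but its size may not. Together the 2 ligands stood at 112 CPM in injured and 27.9 CPM in uninjured stromal-like cells.

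Fgf18, a ligand best known for acting through FGFR3 in cartilage and bone, had 155 UMIs in injured and 177 UMIs in uninjured stromal-like cells. Its level was 15.3 CPM (13.0 to 17.96) in injured and 68.6 CPM (58.9 to 79.5) in uninjured cells, 4.47-fold lower (3.58 to 5.58). It was detected in 14.9% of injured and 29.3% of uninjured stromal-like cells, although the uninjured cells were shallower. At 1000 UMIs per cell the shares were 1.63% injured (0.871 to 2.77) and 8.22% uninjured (5.86 to 11.2). The groups lay apart by both measures.

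Fgf2, basic FGF, a ligand without a classical secretion signal that binds heparan sulfate tightly, had 676 UMIs in injured and 80 UMIs in uninjured stromal-like cells. Its level was 66.9 CPM (62.0 to 72.2) in injured and 31.0 CPM (24.6 to 38.6) in uninjured cells, a ratio of 2.16 (1.71 to 2.76). Weighting each cell alike, the log2 ratio was 0.89, under the 2-fold limit. Thinned shares were 6.65% of injured and 2.89% of uninjured stromal-like cells. Exons of Fgf2 overlap those of Nudt6 on the opposite strand, and the sources used here do not say whether counting used the strand. Nudt6 stood at 5.94 CPM in injured and 6.59 CPM in uninjured stromal-like cells, below Fgf2 in both.

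Fgf1, acidic FGF, which binds all FGF receptors, and Hgf were scarce in the stroma. Fgf1 had 8 UMIs in injured and 1 UMI in uninjured stromal-like cells. Hgf had 27 UMIs in injured and 1 UMI in uninjured stromal-like cells, or 2.67 CPM (1.76 to 3.89) injured and 0.388 CPM (0.00982 to 2.16) uninjured. Over all cells Hgf was counted 58 times in the injured and 1 time in the uninjured library. The remaining injured UMIs lay mainly in macrophage or monocyte-like cells, with 14 UMIs at 7.34 CPM (4.02 to 12.3), and in neutrophil-like cells, with 11 UMIs at 11.7 CPM (5.83 to 20.9). Macrophage or monocyte-like cells numbered 342 in the injured and 16 in the uninjured library, neutrophil-like cells 1019 in the injured and 2 in the uninjured library, and neither class had an Hgf UMI in the uninjured library. At these depths an uninjured level in them was not measurable.

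**Figure D1:**
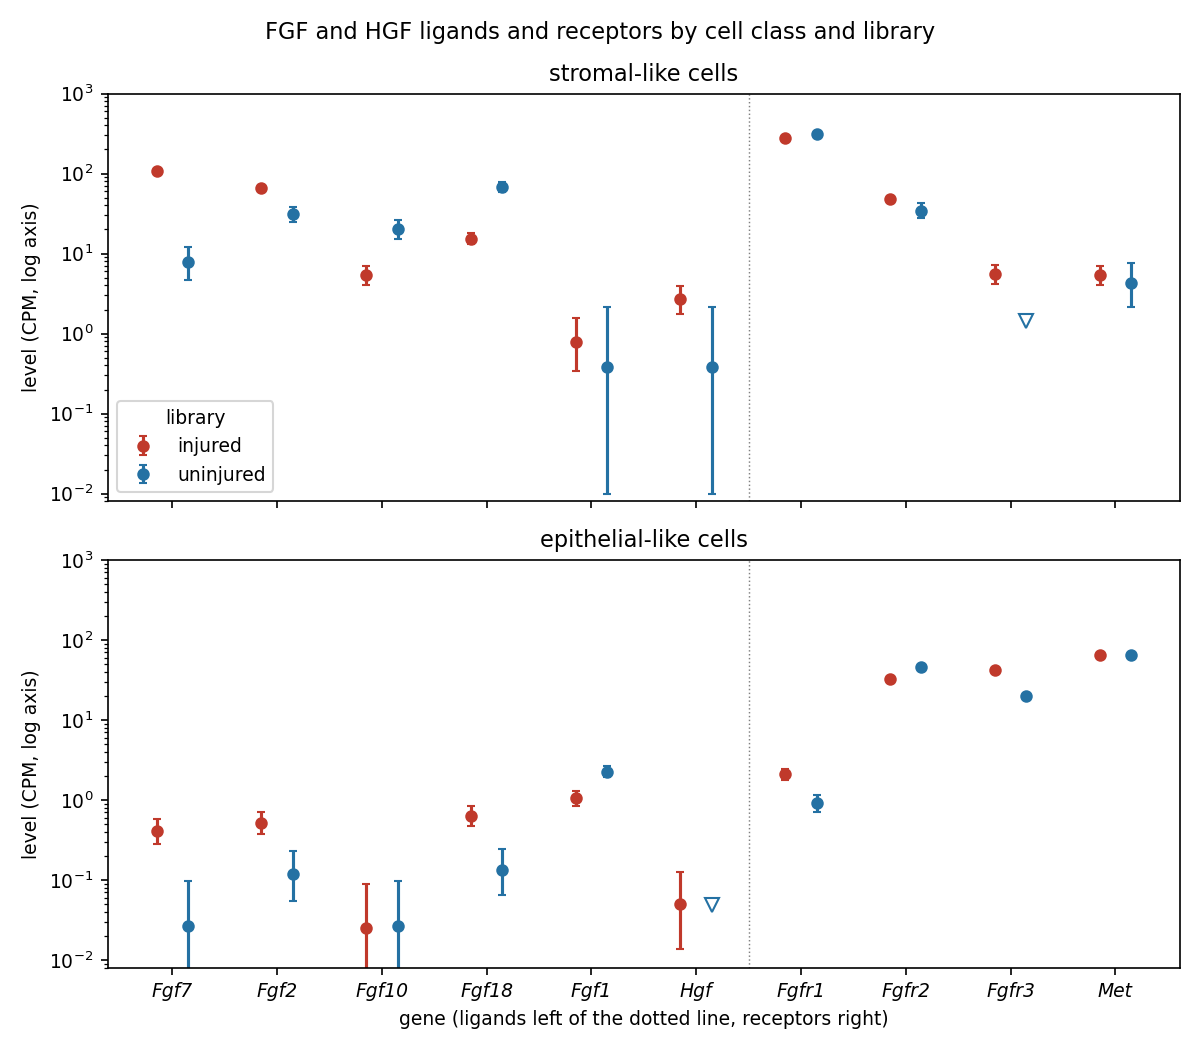
Levels of the 6 ligands (left of the dotted line) and 4 receptors (right) in stromal-like (top) and epithelial-like cells (bottom), in CPM on a log axis, injured in red and uninjured in blue, with exact Poisson 95% intervals; an open triangle marks the upper limit where no UMI was counted, and the lower ends of 3 epithelial intervals lie below the axis. Fgf7 stood at 107.0 CPM in injured and 7.75 CPM in uninjured stroma, and Met at 63.97 CPM in injured and 63.99 CPM in uninjured epithelial-like cells.

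The Fgf7 difference was not carried by 1 group of stromal cells. In the 5 stromal sub-clusters with at least 50 injured cells Fgf7 ranged from 64.2 to 160.0 CPM, with a median of 110.3 CPM. In the 3 with at least 50 uninjured cells it ranged from 2.79 to 17.97 CPM, with a median of 3.71 CPM. The ranges did not overlap, and how many of all genes show this was not counted. Among injured cells the lowest level lay in sub-cluster 6, led by Spp1, a secreted matrix protein gene, and Tagln and Acta2, genes of contractile cells, together with cell cycle genes such as Mki67. The highest lay in sub-cluster 5, led by Tnfsf11, Saa3 and the chemokine genes Cxcl2 and Ccl7. Among uninjured cells the highest Fgf7 level lay in sub-cluster 3, whose Kera level of 1137 CPM was below the 4834 CPM of sub-cluster 2 and the 4979 CPM of sub-cluster 7.

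In the sub-clusters with at least 50 cells of a library, levels of Fgf10, Fgf18 and Fgf2 also did not overlap between the libraries, but intervals of the nearest sub-clusters did. For Fgf10 they ran from 6.29 to 13.9 CPM in injured sub-cluster 1 and from 7.05 to 25.3 CPM in uninjured sub-cluster 3. Fgf10 ranged from 1.67 to 9.55 CPM in injured and from 14.1 to 24.5 CPM in uninjured sub-clusters. Fgf18 ranged from 6.38 to 30.4 CPM in injured and from 50.3 to 77.2 CPM in uninjured sub-clusters. Fgf2 ranged from 53.6 to 84.9 CPM in injured and from 16.8 to 46.2 CPM in uninjured sub-clusters. Sub-clusters were drawn from the same cells and their genes, and each of these held at most 2 cells of the other library. A split between libraries is thus partly built in. These ranges are a description, and the share of all genes with ranges apart was not counted.

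Sub-cluster 9 was the stromal sub-cluster with equal numbers of both libraries, 25 injured and 25 uninjured cells, and was led by Chad, Myoc, Igfbp6 and Comp. Fgf18 had 7 UMIs in its injured and 13 UMIs in its uninjured cells, or 63.2 CPM injured and 167 CPM uninjured, with overlapping intervals. Fgf7 had 1 UMI in its injured and 0 UMIs in its uninjured cells, and Fgf10 had none in either. Fgf2 had 3 UMIs at 27.1 CPM (5.59 to 79.2) in its injured and 5 UMIs at 64.3 CPM (20.9 to 149.98) in its uninjured cells, the opposite order to the class with overlapping intervals. In the injured cells of this sub-cluster Fgf7 thus stood at 9.03 CPM (0.229 to 50.3), below the 64.2 CPM of the lowest injured sub-cluster of at least 50 cells.

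**Figure D2:**
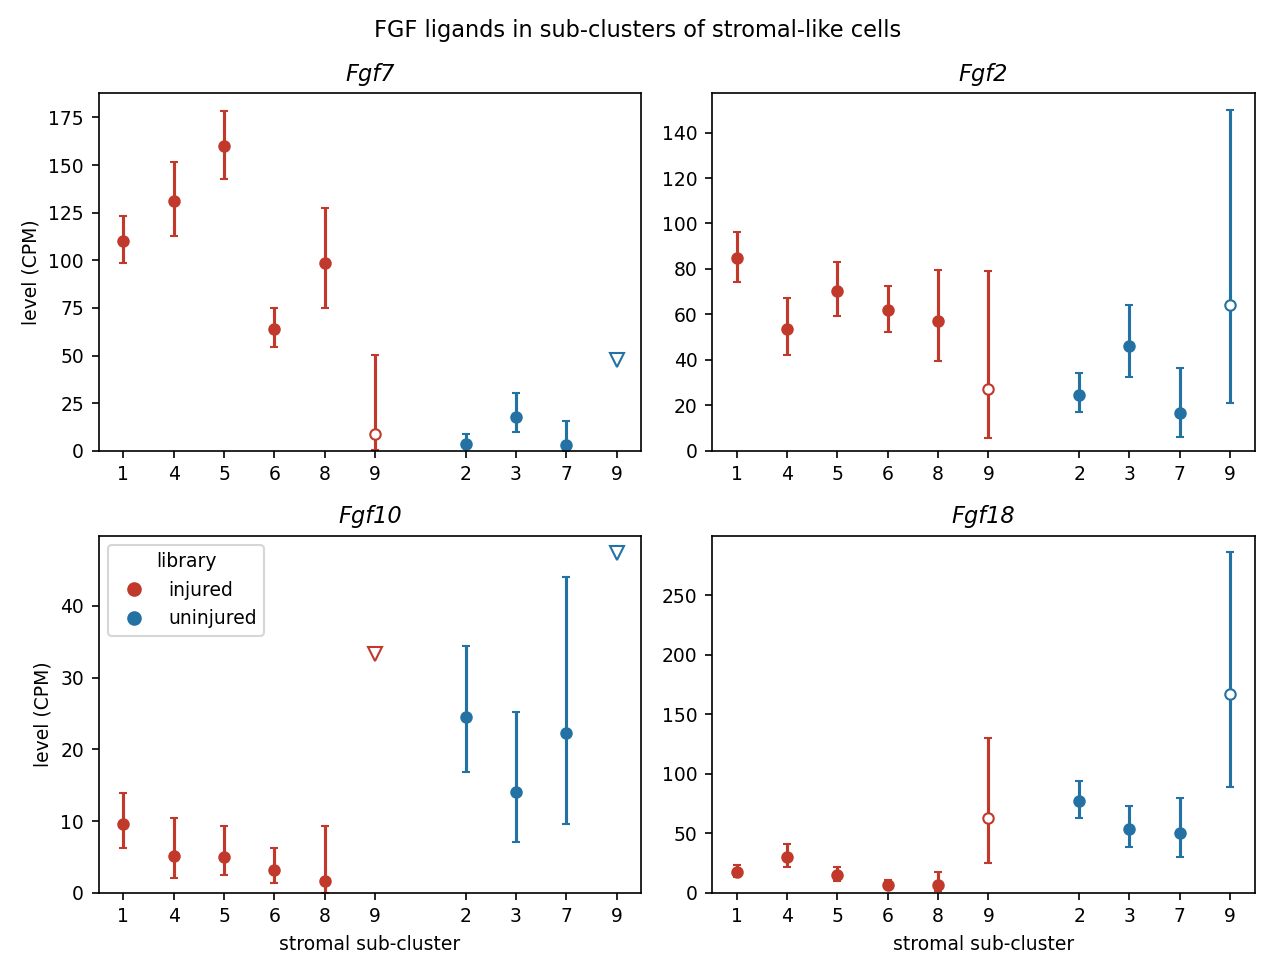
Level in CPM of Fgf7, Fgf2, Fgf10 and Fgf18 in stromal sub-clusters, injured in red and uninjured in blue, with exact Poisson 95% intervals. Filled points have at least 50 cells, open points are sub-cluster 9 with 25 cells of each library, and open triangles mark the upper limit at 0 UMIs. Sub-clusters 10 and 11, with under 50 cells, are not drawn. The levels at the filled points do not overlap between the libraries for any of the 4 genes. Fgf7 ran from 64.2 to 160.0 CPM injured and from 2.79 to 17.97 CPM uninjured. The share of all genes with levels apart in this way was not counted.

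Outside stroma and epithelium, Schwann-like cells, the glia of corneal nerves, had the highest Fgf2 level of any class. They showed 59 UMIs in 97 injured cells and 7 UMIs in 56 uninjured cells. The level was 169 CPM (128 to 218) in injured and 70.1 CPM (28.2 to 144) in uninjured Schwann-like cells, a ratio of 2.41 (1.10 to 6.25). Fgf2 was the 1 member with at least 20 UMIs in this class, and 10.1% of the 3563 genes so measured were higher by the same limits. Epithelial RNA was counted in this class too, with Krt12 at 14.3 CPM in injured and 6619 CPM in uninjured Schwann-like cells. Injured epithelial-like cells themselves held Krt12 at only 27.0 CPM, so it cannot gauge such RNA there. In Schwann-like cells Krt5 stood at 432 CPM injured and 1873 CPM uninjured, beside 3279 CPM injured and 6027 CPM uninjured in epithelial-like cells. Krt14 stood at 1444 CPM injured and 1342 CPM uninjured, beside 8306 CPM injured and 2747 CPM uninjured in epithelial-like cells. The part of epithelial RNA in the Fgf2 level was not tested. Fgf5, a ligand known for its part in hair growth, had 45 UMIs at 129 CPM in injured and 3 UMIs at 30.04 CPM in uninjured Schwann-like cells, a ratio of 4.28 (1.38 to 21.5). Fgf5 was counted 2 times in injured epithelial-like cells and not in stromal-like cells of either library. Fgf1 was highest in mural-like cells, the pericytes and smooth muscle of vessels, with 9 UMIs at 13.8 CPM (6.29 to 26.1) in injured and 3 UMIs at 23.8 CPM (4.92 to 69.7) in uninjured cells.

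Among the receptors of the epithelium, Fgfr3 was higher in injured cells, Fgfr2 was somewhat lower and Met did not differ measurably in summed UMIs. Of the 8 members that reached 20 UMIs in epithelial-like cells, 5 were at least 2-fold higher with an interval that excludes 1, against 13.9% of the 14712 genes so measured. In the other direction 1 was at least 2-fold lower, against 11.5% of genes. Of these 6 only Fgfr3 lay above 25% of its level in the class where it was highest.

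Fgfr3, a receptor whose epithelial form is found in many stratified epithelia, had 3372 UMIs in injured and 1483 UMIs in uninjured epithelial-like cells. Its level was 42.0 CPM (40.6 to 43.4) in injured and 19.8 CPM (18.8 to 20.9) in uninjured cells, a ratio of 2.12 (1.99 to 2.25). It was detected in 39.6% of injured and 18.1% of uninjured epithelial-like cells, and, at 1000 UMIs per cell, in 4.44% of injured and 1.87% of uninjured cells. The difference in level was present at equal depth.

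Fgfr2, the receptor of FGF7 and FGF10 in epithelia, had 2581 UMIs in injured and 3423 UMIs in uninjured epithelial-like cells. The level was 32.1 CPM (30.9 to 33.4) in injured and 45.8 CPM (44.2 to 47.3) in uninjured cells, a ratio of 0.702 (0.667 to 0.739), within the 2-fold limit. Fgfr3 made up 56.6% of the UMIs of Fgfr2 and Fgfr3 together in injured epithelium (55.4 to 57.9) and 30.2% in uninjured epithelium (28.9 to 31.5). The summed level of both was 74.1 CPM in injured and 65.6 CPM in uninjured epithelial-like cells.

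Met, the HGF receptor, had 5139 UMIs in injured and 4786 UMIs in uninjured epithelial-like cells. The level was 63.97 CPM (62.2 to 65.7) in injured and 63.99 CPM (62.2 to 65.8) in uninjured cells, and the interval of the ratio ran from 0.961 to 1.04. Weighting each cell alike, the log2 ratio of Met was -0.31, outside that interval and within the 2-fold limit. Met was nearly all epithelial, with 97.1% of its UMIs in the injured and 99.6% in the uninjured library. In macrophage or monocyte-like cells Met had 35 UMIs at 18.4 CPM (12.8 to 25.5) in the injured library and 0 UMIs in the 16 uninjured cells.

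The epithelial clusters were held by 1 library or the other, except cluster 9 with 56 injured and 310 uninjured cells. Fgfr3 ranged from 25.6 to 82.3 CPM over the 6 clusters with at least 50 injured cells and from 3.72 to 54.6 CPM over the 8 with at least 50 uninjured cells, so the ranges overlapped. Fgfr2 ranged from 15.1 to 52.8 CPM in injured and from 13.7 to 75.9 CPM in uninjured clusters. In both libraries Fgfr2 was lowest in a cluster led by genes of surface or conjunctival cells, in cluster 6 (Krt13, Krt4 and Krt19) of the injured and in cluster 20 (Psca, Asprv1 and Muc4) of the uninjured library. Those 2 clusters also had the lowest Fgfr3 level of their library.

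Cluster 9 had the highest level of both Fgfr2 and Fgfr3 in each library. Fgfr3 stood at 82.3 CPM (58.5 to 113) in its injured and 54.6 CPM (46.8 to 63.4) in its uninjured cells. Fgfr2 stood at 52.8 CPM (34.1 to 77.9) in its injured and 75.9 CPM (66.6 to 86.0) in its uninjured cells. The intervals overlapped for both genes. Met was 33.8 CPM (19.3 to 54.8) in its injured and 52.5 CPM (44.8 to 61.0) in its uninjured cells. Krt12 was not counted in the injured cells of the cluster and stood at 5915 CPM in the uninjured ones, so shared membership did not make them alike in this marker.

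Met ranged from 33.8 to 68.3 CPM in injured clusters, and from 47.7 to 92.4 CPM in 7 of the 8 uninjured clusters. Cluster 18, with 296 uninjured and 4 injured cells and a median of 1250.5 UMIs, stood at 246 CPM. Without that cluster no count of higher or lower members in the epithelium changed.

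**Figure D3:**
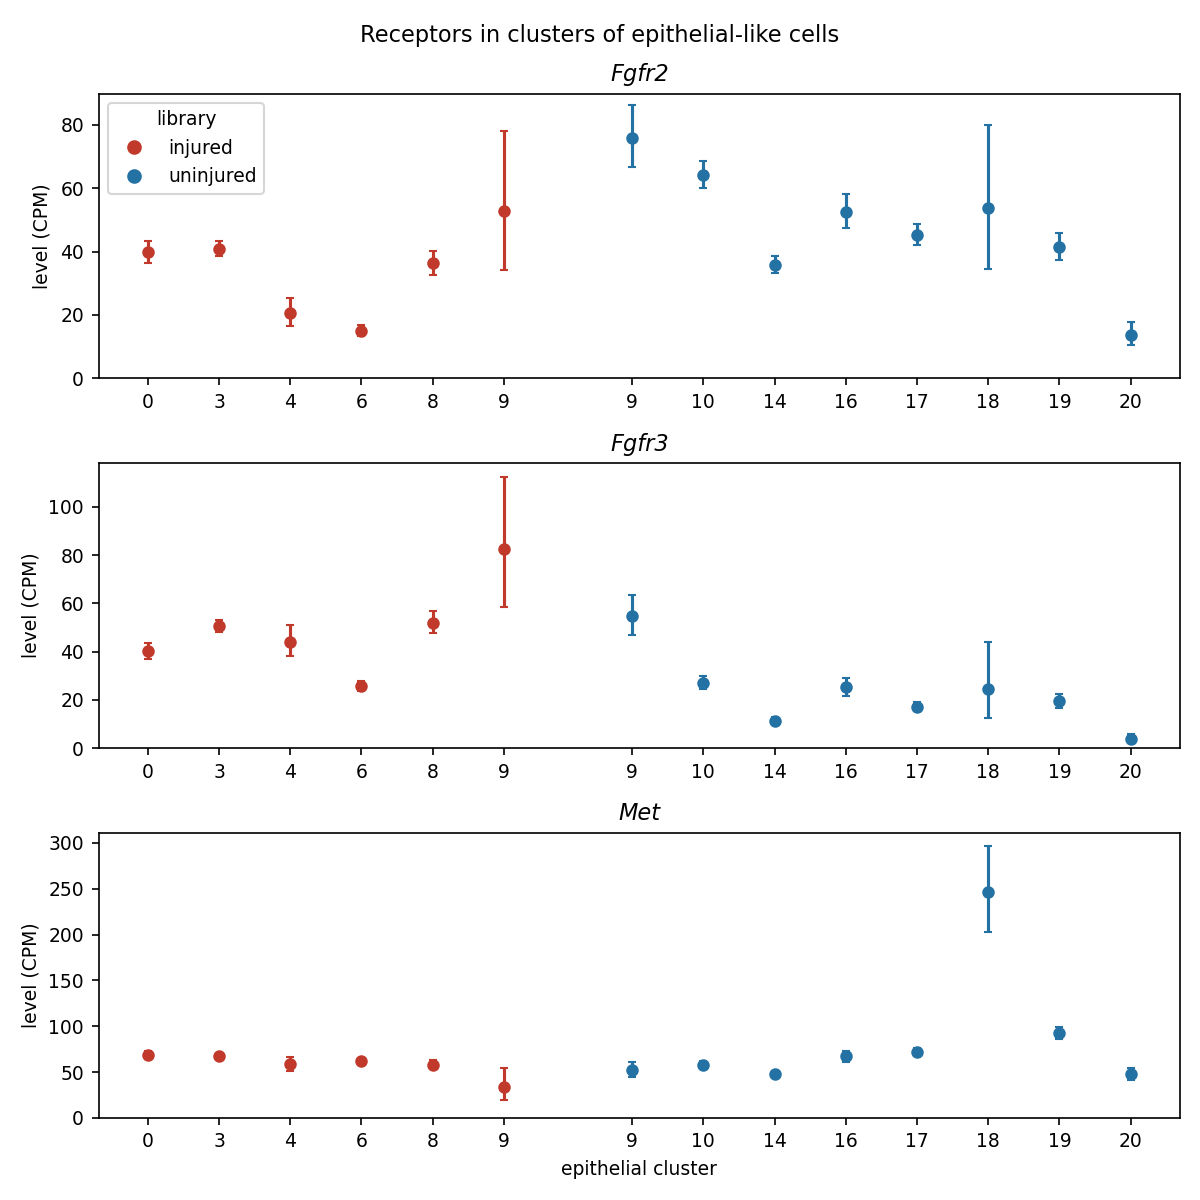
Level in CPM of Fgfr2, Fgfr3 and Met in each epithelial cluster with at least 50 cells of a library, injured in red (left) and uninjured in blue (right), with exact Poisson 95% intervals. Cluster 9, the cluster with at least 50 cells of both libraries, stood highest for Fgfr2 and Fgfr3 in each, and Met of the shallow cluster 18 stood at 246 CPM.

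The division of labour between stroma and epithelium was wide for most members in both libraries. Fgfr1, the receptor of mesenchymal cells, had 2791 UMIs in injured and 795 UMIs in uninjured stromal-like cells, at 276 CPM (266 to 287) injured and 308 CPM (287 to 330) uninjured. Its ratio of 0.896 (0.828 to 0.971) was within the 2-fold limit. Stromal over epithelial levels of Fgfr1 were 131-fold (112 to 154) in the injured and 339-fold (264 to 441) in the uninjured library. Fgf7 was 260-fold higher in stroma in the injured library (184 to 380), and Fgf2 was 128-fold higher in the injured (93.7 to 179) and 258-fold higher in the uninjured library (129 to 584). Met was higher in epithelium, by 11.97-fold in the injured (9.16 to 15.95) and 15.0-fold in the uninjured library (8.38 to 30.1). Vascular endothelial-like cells also held Fgfr1, at 75.7 CPM (64.3 to 88.6) in injured and 84.5 CPM (45.0 to 145) in uninjured cells.

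Fgfr2 was the member shared by both classes, and the order of its class levels turned between the libraries. In the injured library it was 1.49-fold higher in stromal than in epithelial cells (1.35 to 1.64), and in the uninjured library 1.33-fold higher in epithelial than in stromal cells (1.07 to 1.66). In stromal-like cells it stood at 47.9 CPM (43.7 to 52.4) injured and 34.5 CPM (27.7 to 42.5) uninjured, a ratio of 1.39 (1.11 to 1.76). Stromal sub-clusters with at least 50 cells ranged from 27.5 to 73.1 CPM in the injured and from 16.8 to 62.9 CPM in the uninjured library. The order did not hold for every sub-cluster, since uninjured sub-cluster 3, at 62.9 CPM, lay above the 45.8 CPM of uninjured epithelial-like cells. The epithelial and the stromal splice form bind different ligands, and which form was present in either class was not measured.

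Members of the stroma were also counted in epithelium at low levels. The 8 stromal markers summed to 202 CPM in injured and 70.6 CPM in uninjured epithelial-like cells, all 8 with a UMI in both. These sums are 0.456% of their stromal level in the injured and 0.0902% in the uninjured library. Fgf7 stood at 0.384% of its stromal level in injured epithelial-like cells (0.263 to 0.543, 33 UMIs) and 0.345% in uninjured ones (0.0391 to 1.42, 2 UMIs). Fgfr1 stood at 0.761% of its stromal level in injured (169 UMIs) and 0.295% in uninjured epithelial-like cells (68 UMIs). Fgf2 stood at 0.781% in injured (42 UMIs) and 0.388% in uninjured epithelial-like cells (9 UMIs). These 3 genes, with Fgf18, are the epithelial members counted as higher that lay at free RNA levels. The part of stromal RNA in them was not tested. Of the 68 Fgfr1 UMIs of uninjured epithelial-like cells, 31 lay in the 310 cells of cluster 9, at 9.68 CPM. The next highest uninjured cluster of at least 50 cells, cluster 16, stood at 1.32 CPM.

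In epithelial-like cells Fgf18 had 51 UMIs in the injured and 10 UMIs in the uninjured library, at 0.635 CPM (0.473 to 0.835) injured and 0.134 CPM (0.0641 to 0.246) uninjured, a ratio of 4.75 (2.38 to 10.5). At 1000 UMIs per cell 5 UMIs remained in injured and 1 UMI in uninjured cells, too few to be counted. Its injured epithelial level was 4.14% (2.95 to 5.71) of its injured stromal level, against 0.381% for the stromal matrix gene Dcn and 0.465% for Col1a1. In the uninjured library it was 0.195% (0.0918 to 0.367), against 0.0851% for Dcn and 0.0919% for Col1a1. At most 2 UMIs came from any 1 epithelial cell.

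Fgf1 was counted mainly in epithelium, with 85 UMIs in injured and 169 UMIs in uninjured epithelial-like cells. Its level was 1.06 CPM (0.845 to 1.31) in injured and 2.26 CPM (1.93 to 2.63) in uninjured cells, 2.14-fold lower (1.64 to 2.81), and under 25% of the mural level in both. In the uninjured epithelium it was concentrated in clusters 16, 17 and 19, at 5.40, 3.26 and 5.09 CPM, whereas no injured cluster exceeded 1.84 CPM. Cluster 19 was led by Krt12, Slurp1 and Nppb, and cluster 16 held the cell cycle gene Mki67 at 504 CPM.

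Epithelial receptors were counted in stroma in turn. The 13 epithelial markers, all with at least 1 UMI in both, summed to 941 CPM in injured and 1812 CPM in uninjured stromal-like cells, or 4.21% of their epithelial level in the injured and 5.46% in the uninjured library. Met stood at 8.36% of its epithelial level in injured (6.27 to 10.9) and 6.66% in uninjured stromal-like cells (3.32 to 11.9). Fgfr3 had 56 UMIs in injured stromal-like cells, 13.2% of its epithelial level (9.95 to 17.2), and 0 UMIs in uninjured ones. With 3 UMIs over the uninjured class in place of 0, the ratio was 4.77 with a lower limit of 3.75. Of the 56 UMIs 17 lay in the 27 cells of sub-cluster 11, which was led by epithelial genes such as Krt14, Krt15 and Epcam and had a median of 20758 UMIs. Without that sub-cluster 39 UMIs remained, at a log2 ratio of 1.81 in place of 2.25. With doublets left in, 157 UMIs were counted in injured and 8 UMIs in uninjured stromal-like cells. The part of epithelial RNA or of doublets in the Fgfr3 value was not tested.

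Genes that report FGF and ERK signalling were called in both directions in each class. The list of feedback inhibitors and targets held 14 genes, of which 13 had at least 20 UMIs in each class and Spry3 had none. In stromal-like cells 2 were at least 2-fold higher and 3 at least 2-fold lower, beside 9.74% higher and 9.36% lower over all genes, with a median log2 ratio of -0.32 beside 0.00 over all genes. In epithelial-like cells 1 was higher and 3 were lower, beside 13.9% and 11.5% of all genes, with a median of 0.19 beside 0.02 over all genes.

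In stromal-like cells Spry2 and Spry4, sprouty genes whose products restrain receptor tyrosine kinase signalling, differed in opposite directions. Spry2 stood at 27.8 CPM (281 UMIs) in injured and 10.1 CPM (26 UMIs) in uninjured cells, a ratio of 2.76 (1.84 to 4.30). Spry4 stood at 19.8 CPM (200 UMIs) in injured and 40.7 CPM (105 UMIs) in uninjured cells, 2.06-fold lower (1.61 to 2.62), with a log2 ratio of -0.76 when each cell was weighted alike, under the 2-fold limit. Spry1 was 24.8 CPM in injured and 31.0 CPM in uninjured cells. The sprouty-related gene Spred3 had 41 UMIs in injured and 2 UMIs in uninjured cells, while Spred1 stood at 105 CPM in injured and 88.4 CPM in uninjured cells. Spred2 stood at 25.7 CPM in injured and 41.5 CPM in uninjured cells.

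Dusp6, the phosphatase of ERK that is a widely used readout of FGF signalling, stood at 30.9 CPM (312 UMIs) in injured and 31.8 CPM (82 UMIs) in uninjured stromal-like cells, a ratio of 0.971 (0.759 to 1.25). Dusp5, an ERK phosphatase of the nucleus, stood at 21.1 CPM in injured and 33.0 CPM in uninjured stromal-like cells, and Il17rd, an FGF antagonist of the membrane, at 11.5 CPM in injured and 13.6 CPM in uninjured ones. Dusp4 had 18 UMIs in injured and 12 UMIs in uninjured stromal-like cells, 2.61-fold lower (1.15 to 5.73). The ETS factor Etv1 had 19 UMIs in each library, 3.92-fold lower in injured cells (1.96 to 7.82). Both Dusp4 and Etv1 stood here under 25% of their level in the class where each was highest, unlike Spry4. Etv4 had 25 UMIs in injured and 3 UMIs in uninjured cells, and Etv5 50 UMIs in injured and 22 UMIs in uninjured cells, both with an interval that includes 1.

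In epithelial-like cells 3 ETS factors were lower and the ERK phosphatase gene Dusp4 was higher. Etv4 had 61 UMIs at 0.759 CPM in injured and 116 UMIs at 1.55 CPM in uninjured cells, 2.04-fold lower (1.49 to 2.83). Etv5 had 135 UMIs at 1.68 CPM in injured and 273 UMIs at 3.65 CPM in uninjured cells, 2.17-fold lower (1.76 to 2.69). Etv1 had 6 UMIs in injured and 24 UMIs in uninjured cells, 4.30-fold lower (1.71 to 12.9). All 3 factors stood under 25% of their level in the class where each was highest. Dusp4 stood at 4.94 CPM (397 UMIs) in injured and 0.789 CPM (59 UMIs) in uninjured cells, a ratio of 6.26 (4.76 to 8.38), and also lay under that share. Dusp6 stood at 76.5 CPM in injured and 58.2 CPM in uninjured cells, a ratio of 1.31 (1.26 to 1.37), and Dusp5 at 91.4 CPM in injured and 79.9 CPM in uninjured cells.

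Spry2 stood at 36.3 CPM in injured and 18.6 CPM in uninjured epithelial-like cells, a ratio of 1.95 (1.83 to 2.08) that just missed the 2-fold limit. Il17rd was likewise near it, at 2.20 CPM in injured and 1.12 CPM in uninjured cells, a ratio of 1.96 (1.505 to 2.57). Spry1 was 9.52 CPM in injured and 15.0 CPM in uninjured cells, Spred1 24.8 CPM in injured and 37.0 CPM in uninjured cells, and Spred2 20.1 CPM in injured and 14.8 CPM in uninjured cells. Spry4 and Spred3 stayed at about 1 CPM or less in both libraries.

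**Figure D4:**
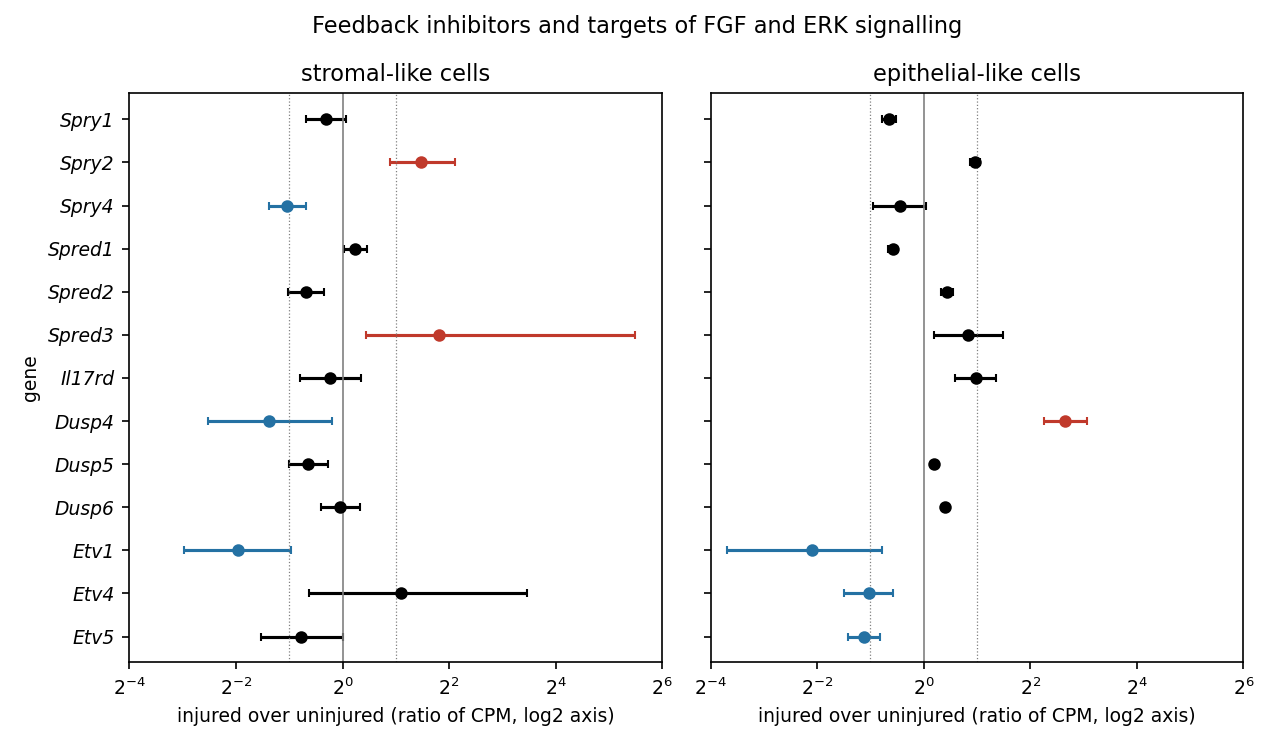
Ratio of CPM, injured over uninjured, on a log2 axis for the 13 measured feedback inhibitors and targets in stromal-like (left) and epithelial-like cells (right), with conditional binomial 95% intervals; red marks genes at least 2-fold higher and blue genes at least 2-fold lower with an interval that excludes 1, and dotted lines mark 2-fold. Spry2 and Spry4 lie on opposite sides in stroma, and Dusp4 lies opposite to Etv1, Etv4 and Etv5 in epithelium.

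Over all 8 lists of pathway genes, 92 genes beside the members, 14 of 70 measured in stromal-like cells were at least 2-fold higher and 10 at least 2-fold lower, beside 9.74% and 9.36% of all genes, with a median log2 ratio of 0.24. In epithelial-like cells 14 of 74 were higher and 10 lower, beside 13.9% and 11.5% of all genes, with a median of 0.08, and these counts are near the background. Of the adaptors that link FGF receptors to their kinases, such as Frs2 and Grb2, none of 9 measured in stroma and none of 10 in epithelium passed the 2-fold limit in either direction.

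Heparan sulfate, the co-receptor of FGFs, is carried by core proteins and built by a set of enzymes. In stromal-like cells 3 of 10 core proteins were higher and 3 lower, beside 9.74% and 9.36% of all genes. Among them the glypican Gpc1 stood at 104 CPM in injured and 34.9 CPM in uninjured cells, a ratio of 2.99 (2.41 to 3.75), whereas the glypican Gpc3 stood at 6.43 CPM in injured and 29.5 CPM in uninjured cells, 4.58-fold lower (3.25 to 6.48). Perlecan, Hspg2, of basement membranes, stood at 105 CPM in injured and 32.6 CPM in uninjured stromal-like cells. The syndecans Sdc1 and Sdc2 were 2.32-fold lower (2.01 to 2.66) and 2.11-fold lower (1.96 to 2.27) in injured stroma. Sdc2 was under the 2-fold limit when cells were thinned to 1000 UMIs (log2 ratio -0.90) and when each cell was weighted alike (-0.96). Ext1, which elongates the chains, had 990 UMIs in injured and 102 UMIs in uninjured stromal-like cells, a ratio of 2.48 (2.02 to 3.07).

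In epithelial-like cells Sdc1, the main syndecan of epithelia, stood at 153 CPM in injured and 309 CPM in uninjured cells, 2.03-fold lower (1.98 to 2.07). Agrn, the agrin core protein, stood at 42.4 CPM in injured and 17.3 CPM in uninjured cells, a ratio of 2.46 (2.30 to 2.62). The sulfotransferase Hs3st1 stood at 60.4 CPM in injured and 13.0 CPM in uninjured cells, a ratio of 4.65 (4.34 to 4.99). In Schwann-like cells 3 of 6 core proteins were higher, beside 10.1% of all genes measured in that class. These were Agrn, Gpc1 and Sdc3, each with 34 to 36 UMIs injured and 1 to 3 UMIs uninjured. Sdc4 was 2.36-fold lower there (1.90 to 2.92), as were 5.36% of all genes measured in that class by the same limits. The part of epithelial RNA in these Schwann-like values was not tested.

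Among the other FGF ligands, 4 of 17 were measured in stroma. Fgf21, known as a hormone of the liver, had 43 UMIs at 4.26 CPM in injured and 114 UMIs at 44.2 CPM in uninjured stromal-like cells, 10.4-fold lower (7.25 to 15.1). At 1000 UMIs per cell 4 UMIs remained in injured and 7 UMIs in uninjured cells, too few to be counted, with a log2 ratio of -1.63. The interval of the level ran from 3.08 to 5.73 CPM in injured and from 36.5 to 53.1 CPM in uninjured cells. Fgfbp1, a carrier that frees FGFs from heparan sulfate, was an epithelial gene at 163 CPM in injured and 281 CPM in uninjured cells, 1.73-fold lower (1.69 to 1.76), within the 2-fold limit.

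The HGF precursor is activated by proteases and held back by their inhibitors. Of 7 such genes measured in stromal-like cells, 4 were at least 2-fold higher and none lower, beside 9.74% higher and 9.36% lower over all genes of the class, with a median log2 ratio of 1.22, and 2 of the 4 lay above free RNA levels. Among them was Plat, tissue plasminogen activator, at 130 CPM in injured and 32.2 CPM in uninjured cells, a ratio of 4.03 (3.23 to 5.09). In mural-like cells, where 8.86% of genes measured were higher and 8.19% lower by these limits, Plat was higher as well, at 145 CPM in injured and 31.8 CPM in uninjured cells. Plau, urokinase, had 46 UMIs in injured and 0 UMIs in uninjured mural-like cells. In epithelial-like cells St14, the membrane protease matriptase that cleaves pro-HGF, stood at 44.6 CPM in injured and 25.2 CPM in uninjured cells, a ratio of 1.77 (1.67 to 1.87). Its inhibitor Spint1 stood at 56.8 CPM in injured and 74.9 CPM in uninjured cells, 1.32-fold lower (1.27 to 1.37).

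Among the partners of MET, Lrig1, a membrane protein known to lower the level of receptor tyrosine kinases, was lower in both classes. It stood at 12.1 CPM in injured and 41.0 CPM in uninjured epithelial-like cells, 3.40-fold lower (3.16 to 3.66). In stromal-like cells it stood at 28.5 CPM in injured and 68.2 CPM in uninjured cells, 2.39-fold lower (1.97 to 2.90). Mst1r, the second receptor of the MET family, stood at 10.1 CPM in injured and 15.9 CPM in uninjured epithelial-like cells, 1.57-fold lower (1.44 to 1.72).

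Over 23 pairs of cluster and library with at least 50 cells, the genes closest to a member by Pearson correlation of log2(CPM + 1), among 12272 genes, are given as a description, since the points share libraries and depth. Fgf7 was closest to Mfap5 (r = 0.917), which encodes a protein of elastic microfibrils, followed by Ecrg4 and Ms4a4d. Fgf18 was closest to Tmem132c (0.928) and Lmx1b (0.919). Fgfr1 was closest to Copz2 (0.945). Among the epithelial receptors, Met was closest to Cdcp1 (0.944), Fgfr2 to Egfr (0.888), the receptor of epidermal growth factor, and Fgfr3 to Shmt1 (0.864). Fgf10 was closest to Prdm6 (0.999), a value that rests on few points, since Fgf10 was near 0 outside the stroma.

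By position in the GENCODE M21 annotation of GRCm38, the members lie apart in the genome and form no cluster, apart from chromosome 5, which carries Hgf (16553495 to 16620152, plus strand) and Fgfr3 (33721674 to 33737068, plus strand). Fgf7 (ENSMUSG00000027208) lies on chromosome 2, 126034658 to 126091185, plus strand. Fgf10 (ENSMUSG00000021732) lies on chromosome 13, 118669791 to 118792115, plus strand, and Fgf18 (ENSMUSG00000057967) on chromosome 11, 33117430 to 33147400, minus strand. Met (ENSMUSG00000009376) lies on chromosome 6, 17463800 to 17573980, plus strand, and Fgfr2 (ENSMUSG00000030849) on chromosome 7, 130162451 to 133123350, minus strand. An exon of Fgfr2 overlaps one of Ctbp2 on the same strand, and Ctbp2 stood at 29.7 CPM in injured and 26.4 CPM in uninjured stromal-like cells.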

How the data were processed

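The authors deposited 1 matrix of raw UMI counts per library, produced by Cell Ranger (7.0.1, per the file headers). The genome was GRCm38 per the submitters' processing notes; chemistry, annotation release and use of strand are not stated. Cells needed 300 genes, 500 UMIs and at most 20% of UMIs from mitochondria. Scrublet's own threshold marked 5 injured and 37 uninjured cells, so the highest doublet scores were removed at an assumed 0.8% per 1000 barcodes (657 injured and 375 uninjured cells). Libraries were clustered together in scanpy 1.11.5 (2000 variable genes, 30 principal components, 20 neighbours, Leiden resolution 1) and clusters named by marker lists.

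UMIs were summed per class and library, and CPM is UMIs per 1000000 of the class. Ratios are injured over uninjured with conditional binomial intervals, levels have exact Poisson and shares exact Clopper-Pearson intervals, all at 95%, with counts under 3 set to 3 for a ratio. Higher or lower means 2-fold or more, an interval that excludes 1 and 20 UMIs in both libraries summed. Free RNA level means under 25% of the level in the highest class. The rule was tested on simulated counts.

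All members and the feedback list are named. Other list genes are named at 20 CPM, above free RNA level and past the limits, up to 4 per list, class and direction; some genes that met a rule for naming are not reported here. Fgfbp1, St14, Spint1, Mst1r, Nudt6, Ctbp2, Dcn and Col1a1 were added with their values seen. Members and lists were chosen with earlier results of these data known.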

Additional observations from a re-analysis of the deposited data

Results flagged for a closer look

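Fgf18 was at least 2-fold different in opposite directions in the 2 main classes of the same libraries. Its log2 ratio, injured over uninjured, was 2.25 in epithelial-like cells (51 UMIs injured, 10 UMIs uninjured) and -2.16 in stromal-like cells (155 UMIs injured, 177 UMIs uninjured). The epithelial level, 0.635 CPM injured and 0.134 CPM uninjured, lay below 1% of the highest stromal level. At 1000 UMIs per cell the epithelial log2 ratio was 0.75 (5 UMIs injured, 1 UMI uninjured), no longer counted as higher. The difference between the classes was not tested, since each group has 1 library.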

How the results depend on the processing

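No paired analysis was possible because each group has 1 library, and for the same reason no replicate could be left out. Over 12 alternatives, Fgf7 and Fgf18 in stroma and Fgfr3 in epithelium kept their direction and stayed past the 2-fold limit in all, with log2 ratios from 3.30 to 3.86, from -2.34 to -1.85 and from 1.06 to 1.28. Thinning every cell to 1000 UMIs left few UMIs per gene and lowered the counts. In stroma 2 members were then higher and 1 lower, and of the list genes 8 higher and 2 lower. In epithelium 1 member was higher and 0 lower, and of the list genes 9 higher and 6 lower. With thinning the log2 ratio of Fgf10 in stroma was 0.18 (8 UMIs injured, 4 UMIs uninjured), that of Fgfr3 -0.088 (5 UMIs injured, 0 UMIs uninjured) and that of Hgf -0.82 (3 UMIs injured, 0 UMIs uninjured), and that of stromal over epithelial Fgf1 in the uninjured library 1.57; all 4 reversed and rest on counts near or under the floor of 3 UMIs. Weighting each cell alike, Fgf2 in stroma had a log2 ratio of 0.89, under the limit. Leaving out sub-cluster 11 or cluster 18 was chosen after seeing the data and is 1 of the 12 alternatives of its class. Some of the other alternatives could hardly move a ratio. A changed minimum of UMIs leaves the ratio as it is. At Leiden resolution 2 the log2 ratio of Fgf7 in stroma was 3.79, as in the main setting. Genes with few UMIs are limited by depth.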
